A study of Saccharomyces cerevisiae with 12 samples.

Results

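The 10 genes described here serve yeast in taking up and breaking down nitrogen sources that are used when better ones are short. They are the allantoin pathway genes DAL1, DAL2, DAL3, DAL4, DAL5 and DAL7, the regulator gene DAL80, the urea permease gene DUR3, the general amino acid permease gene GAP1 and the ammonium permease gene MEP2. They were chosen by symbol, with earlier results of these data known. Each of the 10 has 1 probe set of its own among the 5449 Saccharomyces cerevisiae genes tested. Total RNA of EC1118, a commercial wine yeast sold by Lallemand Inc., was measured on 12 Affymetrix single-colour arrays in 4 groups of 3. Cells from the second fermentation of sparkling wine, in closed bottles of base wine with 20 g/L of added sucrose at 16 °C, were sampled at day 7, at day 15 and at day 19, by which times the ethanol content was up by 0.26%, 0.89% and 1.27%. These cells had first been adapted to ethanol in a medium that held base wine, sucrose and diammonium phosphate. The reference was the same strain growing exponentially in YPD, a rich glucose medium, at 28 °C. The labels call the arrays of a group biological replicates, and for the bottles name independent tirage assays, but they do not say whether the reference replicates were separate cultures, so its spread may be technical. The bottles differ from the reference in their medium, in temperature, in ethanol and in the phase of growth, which cannot be told apart.

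Yeast can live on allantoin, a ring compound of purine breakdown, by importing it, opening the ring and cutting the product down to urea and glyoxylate, with urea then split to ammonium. Genes of this pathway and permeases for poor nitrogen sources are known to be held down while glutamine, asparagine or ammonium is plentiful, which is called nitrogen catabolite repression. The GATA factors Gln3 and Gat1 are known to activate them and Dal80 and Gzf3 to repress them, and the allantoin genes also respond to an inducer through Dal81 and Dal82. Urea amidolyase, the enzyme that follows this set, was not analysed here.

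Some arrays stood apart before any gene was considered. Replicates of day 7 correlated across genes at 0.892 to 0.966, those of day 15 at 0.917 to 0.980, those of day 19 at 0.817 to 0.939 and those of the reference at 0.987 to 0.997, and the 2 lowest values at each bottle time involved replicate 1. Probe sets of ribosomal RNA averaged 9.66 to 11.6 on the bottle arrays, against 5.39 to 7.34 on the reference arrays (log2). The 3′ minus 5′ difference of the ACT1 control probe sets, a sign of RNA integrity, was 0.123 to 0.622 on the bottle arrays, with the highest value on day 7 replicate 1, against 0.195 to 0.279 on the reference arrays. The part of either measure in the results below was not tested.

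The repressor gene DAL80 and the allantoicase gene DAL2 were higher in the bottles at all 3 times, and no member was lower at any. The allantoin permease gene DAL4, the allantoate permease gene DAL5 and the ureidoglycolate lyase gene DAL3 were called higher at day 7 alone. At an adjusted p under 0.05 in each of 24 alternative analyses, DAL4 passed at day 7 in 23, DAL5 in 11 and DAL3 in 19. These counts include the analysis that changed only the threshold, to 0.01, which none of these genes met (limma adjusted p = 0.0127, 0.0471 and 0.0289). GAP1, MEP2, DUR3, DAL1 and DAL7 were called at no time, although the 3 group means of each lay above its reference mean, which under quantile normalization did not hold for DAL1 at day 7 and day 19 or for DUR3 at day 19. For GAP1, MEP2 and DUR3 a single array, day 7 replicate 1, carried most of the difference at day 7. Values are log2 probe set summaries, and a gene was called at a Benjamini-Hochberg adjusted p under 0.05 over all 5449 genes in limma.

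At day 7, 5 of the 10 members were called higher, where 19.7% of all genes were. At day 15 the count was 2 of 10, where 21.4% of all genes were called higher, and at day 19 it was 2 of 10, where 22.7% were. The counts of day 15 and day 19 are thus near the background, and that of day 7 is above it. Since the members were chosen with earlier results of these data known, the day 7 excess is a description and not a test. The median difference of the members from the reference was 1.71 at day 7, 1.15 at day 15 and 0.95 at day 19 on the log2 scale, against -0.03, -0.08 and -0.03 over all genes. None was called lower at day 7, day 15 or day 19 by limma, and 0 had an unadjusted p under 0.05 in that direction, where 17.1%, 23.5% and 20.8% of all genes were called lower. Higher at all 3 times were 2 of 10 members, as were 15% of all genes. All 3 bottle arrays lay above all 3 reference arrays for 8 members at day 7, 8 at day 15 and 6 at day 19, as they did for 30.8%, 33% and 28.9% of all genes. Leaving out day 7 replicate 1 changed these counts of calls to 3, 5 and 6, where 17.3%, 22.8% and 24.2% of all genes were called higher in that fit. Leaving out both replicate 1 arrays that stand apart, a choice made after seeing the data, gave 8 at day 15 and 7 at day 19, where 28% and 27.5% of all genes were. Fits of only the groups compared gave 8 at day 15 and 6 at day 19, where 29% and 21% of all genes were. Quantile normalization gave 2 at day 7, near its 16.2% of all genes.

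**Figure D1:**
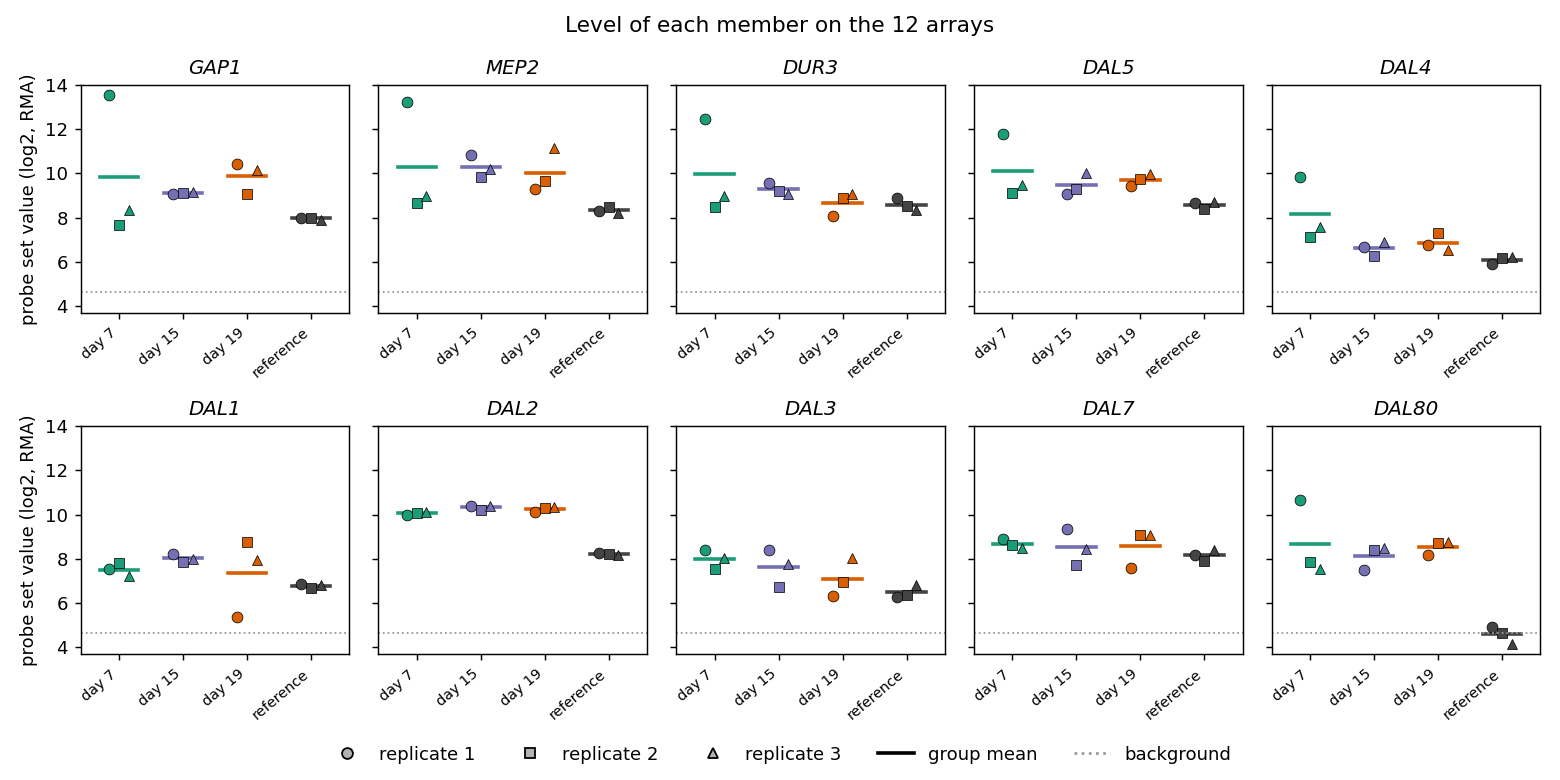
Level of each member on each array (log2 probe set value), with the bottle times left of the reference, symbols for replicate numbers, bars for group means and a dotted line for background (4.62, the 0.95 quantile of the Schizosaccharomyces pombe probe sets). DAL2 and DAL80 lie above all their reference arrays on all 9 bottle arrays, while GAP1, MEP2 and DUR3 have 1 very high array at day 7.

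**Figure D2:**
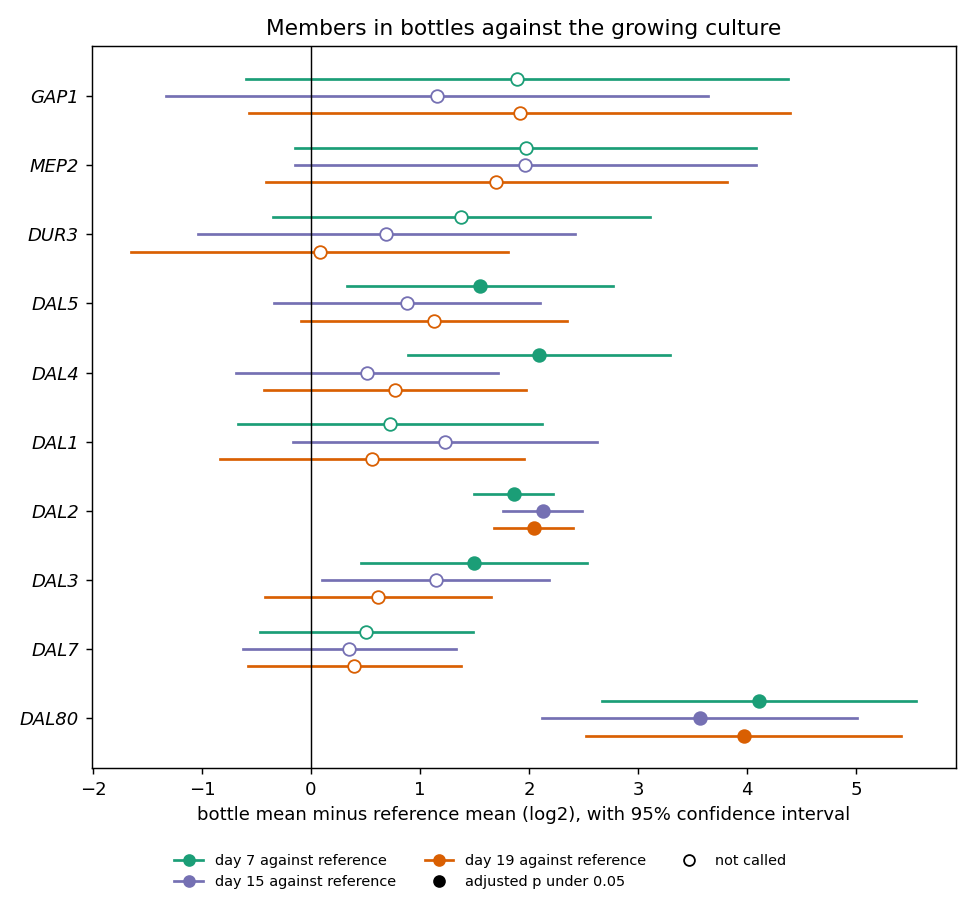
Difference of each bottle mean from the reference mean (log2) with its 95% confidence interval from limma; filled points are called at adjusted p under 0.05. The intervals of DAL2 are the narrowest and those of GAP1 the widest of the 10 genes.

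GAP1 encodes the general amino acid permease, which carries most amino acids into cells on poor nitrogen. It read 13.5, 7.67 and 8.35 at day 7, 9.07, 9.11 and 9.17 at day 15 and 10.4, 9.07 and 10.1 at day 19, against 7.98, 7.99 and 7.91 in the reference. Day 7 replicate 1 was by far the highest array, day 7 replicate 2 lay below all 3 reference arrays, and the day 15 and day 19 arrays all lay above the reference. Its differences from the reference were 1.89 ± 1.13 at day 7 (limma standard error, adjusted p = 0.209), 1.16 ± 1.13 at day 15 (adjusted p = 0.423) and 1.91 ± 1.13 at day 19 (adjusted p = 0.189). The fit pools the spread of a gene over the groups, so the array at day 7 widens the error at all 3 times. Without day 7 replicate 1 the difference was 0.0494 ± 0.356 at day 7 (adjusted p = 0.93), 1.16 ± 0.319 at day 15 (adjusted p = 0.0132) and 1.91 ± 0.319 at day 19 (adjusted p = 0.00117). GAP1 thus passed at the later times in the fit that left this array out, and not with all 12 arrays.

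MEP2 encodes the ammonium permease of highest affinity, which is also known as a sensor in filamentous growth. Its values were 13.2, 8.65 and 8.99 at day 7, 10.8, 9.83 and 10.2 at day 15 and 9.27, 9.64 and 11.1 at day 19, against 8.30, 8.46 and 8.20 in the reference. All 9 bottle arrays lay above the reference, most narrowly at day 7, where replicates 2 and 3 were close to it. The differences were 1.97, 1.97 and 1.70, each ± 0.965, with adjusted p = 0.128, 0.116 and 0.173 at day 7, day 15 and day 19. Without day 7 replicate 1 they were 0.50 ± 0.486 (adjusted p = 0.45), 1.97 ± 0.434 (adjusted p = 0.00464) and 1.70 ± 0.434 (adjusted p = 0.0101). As for GAP1, the later times passed once that array was out, and the day 7 value shrank.

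DUR3 encodes the permease for urea, which also carries polyamines. It read 12.5, 8.46 and 8.98 at day 7, 9.54, 9.22 and 9.07 at day 15 and 8.07, 8.87 and 9.06 at day 19, against 8.89, 8.51 and 8.36 in the reference. Day 15 lay above the reference on all arrays, while day 7 and day 19 overlapped it. The differences were 1.38, 0.69 and 0.0791, each ± 0.79 (adjusted p = 0.189, 0.493 and 0.942). Without day 7 replicate 1 the day 7 value was 0.132 ± 0.322 (adjusted p = 0.777) and the day 15 value was 0.69 ± 0.288 (adjusted p = 0.0704). With both replicate 1 arrays out, DUR3 at day 15 had the same difference with ± 0.214 and adjusted p = 0.019.

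DAL5 encodes the permease for allantoate and ureidosuccinate, and DAL4 that for allantoin. DAL5 stood at 11.8, 9.12 and 9.46 at day 7, 9.07, 9.29 and 9.99 at day 15 and 9.41, 9.74 and 9.95 at day 19, against 8.66, 8.37 and 8.68 in the reference, with no overlap at any time. It rose by 1.55 ± 0.557 at day 7 (adjusted p = 0.0471), and its differences of 0.88 and 1.13 at day 15 and day 19 did not pass (adjusted p = 0.216 and 0.121). This day 7 call was close to the threshold: without day 7 replicate 1 the difference was 0.72 ± 0.293 (adjusted p = 0.0844), and the later times then passed, with adjusted p = 0.0185 and 0.00631. Under quantile normalization the day 7 difference was 1.41 (adjusted p = 0.0691). DAL5 at day 7 had a limma adjusted p under 0.05 in only 11 of the 24 alternatives, with values up to 0.127. These 11 include the analysis at the stricter threshold of 0.01, which DAL5 did not meet. DAL4 stood at 9.83, 7.12 and 7.56 at day 7, 6.68, 6.25 and 6.87 at day 15 and 6.75, 7.28 and 6.54 at day 19, against 5.88, 6.16 and 6.20 in the reference. Again no bottle time overlapped the reference, and day 7 replicate 1 was the highest array. DAL4 rose by 2.09 ± 0.549 at day 7 (adjusted p = 0.0127) and by 1.26 ± 0.281 without that array (adjusted p = 0.00804), so its call did not rest on it while its size did. Quantile normalization ended that call (1.12, adjusted p = 0.178) and turned the 2 later differences below 0. At day 15 and day 19 it differed by 0.52 and 0.77 (adjusted p = 0.457 and 0.271), and without day 7 replicate 1 the day 19 value passed (adjusted p = 0.0287).

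DAL2 encodes allantoicase, which splits allantoate into urea and ureidoglycolate. It read 9.98, 10.1 and 10.1 at day 7, 10.4, 10.2 and 10.4 at day 15 and 10.1, 10.3 and 10.3 at day 19, against 8.24, 8.23 and 8.15 in the reference. Its arrays were close to each other in every group: the standard deviation was 0.0789 at day 7, 0.115 at day 15, 0.128 at day 19 and 0.05004 in the reference (n = 3 each). DAL2 rose by 1.86 at day 7, 2.13 at day 15 and 2.04 at day 19, each ± 0.166, with adjusted p = 2.68e-05, 1.3e-05 and 1.17e-05. On the linear scale these are 3.63-fold, 4.37-fold and 4.12-fold. The 2 replicate 1 arrays that stand apart elsewhere were close to their partners here, by -0.134 at day 7 and -0.221 at day 19.

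The other enzymes of the pathway were less even. DAL1 encodes allantoinase, which opens the allantoin ring. It stood at 7.53, 7.79 and 7.20 at day 7, 8.19, 7.85 and 8.003 at day 15 and 5.35, 8.75 and 7.92 at day 19, against 6.85, 6.67 and 6.82 in the reference. At day 7 and day 15 all arrays lay above the reference, and at day 19 replicate 1 lay below it and replicates 2 and 3 above. The differences of 0.73, 1.23 and 0.56, each ± 0.636, did not pass (adjusted p = 0.385, 0.134 and 0.499). Without day 19 replicate 1 they were 0.73, 1.23 and 1.56 and passed at all 3 times (adjusted p = 0.0304, 0.00184 and 0.00125), so the outcome for DAL1 rested on that array.

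DAL3 encodes ureidoglycolate lyase, which releases urea and glyoxylate. Its values were 8.38, 7.52 and 8.04 at day 7, 8.39, 6.72 and 7.77 at day 15 and 6.33, 6.94 and 8.02 at day 19, against 6.27, 6.35 and 6.83 in the reference. Day 7 was clear of the reference, and 1 array of day 15 and 1 of day 19 reached into its range. DAL3 rose by 1.498 ± 0.474 at day 7 (adjusted p = 0.0289) and differed by 1.14 at day 15 (adjusted p = 0.0689) and 0.62 at day 19 (adjusted p = 0.311). The day 7 call was lost without day 7 replicate 1 (1.30 ± 0.535, adjusted p = 0.0870) and under quantile normalization (0.71, adjusted p = 0.273), and without day 19 replicate 1 the day 15 difference passed (adjusted p = 0.0429).

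DAL7 encodes a malate synthase that takes up the glyoxylate made from allantoin. It read 8.91, 8.62 and 8.49 at day 7, 9.36, 7.74 and 8.46 at day 15 and 7.57, 9.06 and 9.05 at day 19, against 8.19, 7.90 and 8.40 in the reference. The bottle arrays overlapped the reference at day 15 and day 19 and cleared it narrowly at day 7. Its differences of 0.51, 0.35 and 0.40, each ± 0.446, did not pass (adjusted p = 0.386, 0.537 and 0.495), and they were among the smallest of the set. The 95% confidence interval at day 15 ran from 0.649-fold to 2.51-fold, so a change of 2-fold could not have been told from no change.

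DAL80 encodes the GATA repressor of the pathway, whose own gene is known to be under nitrogen catabolite repression. It read 10.7, 7.86 and 7.53 at day 7, 7.51, 8.40 and 8.51 at day 15 and 8.15, 8.71 and 8.77 at day 19, against 4.92, 4.66 and 4.15 in the reference, where 1 of 3 arrays was above its own background. All 9 bottle arrays lay well above all 3 reference arrays. DAL80 rose by 4.11 at day 7, 3.57 at day 15 and 3.97 at day 19, each ± 0.659, with adjusted p = 0.000923, 0.00161 and 0.000975. The reference mean of 4.57 lay at background, so no fold on the linear scale is given. Without day 7 replicate 1 the day 7 difference was 3.12 ± 0.35 (adjusted p = 0.000219), so the call held on the other arrays.

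Day 7 replicate 1 was the highest of the 12 arrays for 6 of 10 members, GAP1, MEP2, DUR3, DAL5, DAL4 and DAL80, as it was for 10.8% of all genes. For the same 6 members it lay at least 2 above the mean of the other day 7 arrays on the log2 scale, as it did for 1.12% of all genes. The gap was 5.52 for GAP1, which was larger than for any other gene of the 5449, 4.41 for MEP2, 3.74 for DUR3, 2.96 for DAL80, 2.50 for DAL5 and 2.48 for DAL4. The enzyme genes did not share it, with 0.59 for DAL3, 0.35 for DAL7, 0.0306 for DAL1 and -0.134 for DAL2. At day 15, DAL3 and DAL7 were high on replicate 1 and low on replicate 2. At day 19, DAL1, DAL7, DAL3 and MEP2 were low on replicate 1, by -2.98, -1.48, -1.15 and -1.12, while MEP2 was also high on replicate 3, by 1.69, and GAP1 low on replicate 2, by -1.21. Day 19 replicate 1 was the lowest of the 9 bottle arrays for 4 of 10 members, DAL1, DAL3, DAL7 and DUR3, as it was for 16.7% of all genes. These are single arrays, which no replicate checks.

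**Figure D3:**
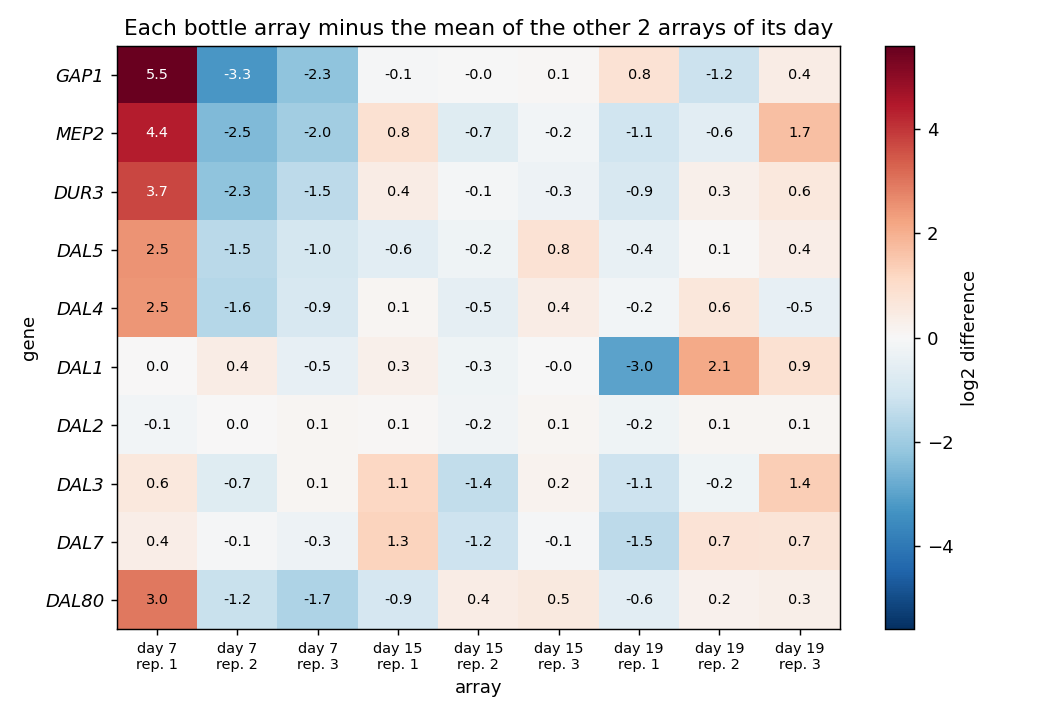
Each bottle array minus the mean of the other 2 arrays of its day (log2), for the 10 members in rows and the 9 bottle arrays in columns. The first column shows the gap of day 7 replicate 1, from 5.5 for GAP1 to -0.1 for DAL2, and the column of day 19 replicate 1 shows DAL1 at -3.0.

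Between the bottle times no member was called. limma called 0 of 10 in each of the 3 comparisons, where it called 0% of all genes for day 15 against day 7, 0% for day 19 against day 15 and 0.147% for day 19 against day 7. Unadjusted p was under 0.05 for 1, 0 and 1 member in the 3 comparisons and for 1 member in the F-test, which was DAL4 each time. By limma's F-test over the bottle times, 0 of 10 members and 0.0367% of all genes were called, and DAL4 had the lowest adjusted p of the members, 0.366. DAL4 was lower at day 15 than at day 7 by -1.57 ± 0.549 (adjusted p = 0.424), with no overlap of the arrays, as was the case for 9.1% of all genes. DAL1 and DAL2 lay above their day 7 arrays at day 15, by 0.51 and 0.27, as did 6.17% of all genes (adjusted p = 0.789 and 0.563). DUR3 lay below its day 15 arrays at day 19, by -0.61, as did 4.88% (adjusted p = 0.815). No member lay wholly above at day 19 relative to day 15, or on either side relative to day 7, where 7.8%, 5.87% and 6.11% of all genes did. For the other genes the 3 times overlapped, so no order of the bottle times can be given. GAP1 differed by 0.0230 ± 1.13 between day 19 and day 7 (adjusted p = 0.995), and by 1.60 (adjusted p = 0.0197) with both replicate 1 arrays out. In the latter fit 5.76% of all genes were called higher at day 19 than at day 7.

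In the RefSeq annotation of the laboratory strain S288C (assembly R64), DAL1, DAL4, DAL2, DCG1, DAL7 and DAL3 stand next to each other in this order, and they are known as the DAL cluster. Differences between these neighbours were not tested. DAL2 was called at all 3 times and DAL4 and DAL3 at day 7 (not under quantile normalization), while DCG1, a gene of the cluster whose role is not well known, differed by 0.0923, 0.35 and 0.0244, each ± 0.349 (adjusted p = 0.854, 0.426 and 0.961). DCG1 read 8.48, 7.87 and 8.21 at day 7, 8.58, 7.78 and 8.99 at day 15 and 7.46, 8.61 and 8.29 at day 19, against 8.01, 8.03 and 8.24 in the reference, with overlap at each time. The flanking genes were taken up after the data were seen. YVH1, a protein phosphatase gene before DAL1, fell by -1.47, -1.33 and -1.12 at the 3 times (adjusted p = 0.0049, 0.00627 and 0.0153), and the call at day 19 was lost without day 19 replicate 3 (-0.86, adjusted p = 0.0572). MGA2, a regulator of fatty acid desaturation beyond DAL3, fell by -1.30 at day 7 (adjusted p = 0.00285) and differed by -0.25 and 0.46 later (adjusted p = 0.429 and 0.161).

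**Figure D4:**
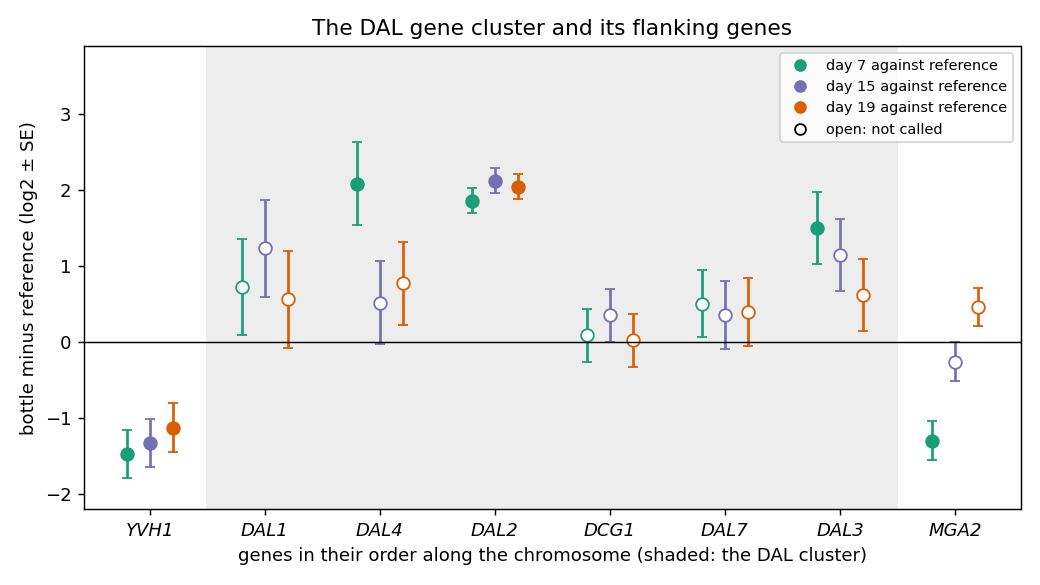
Difference from the reference (log2 ± limma standard error) at the 3 bottle times for the DAL cluster (shaded) and its flanking genes in their order along the chromosome; filled points are called. DAL2 stands near 2 at each time, DCG1 near 0, and YVH1 below -1.

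Among the regulators, the activator gene GAT1 and DAL82, a gene of the response to the inducer, were higher in the bottles and DAL81 was lower, at each time. GAT1 read 9.64, 8.33 and 9.05 at day 7, 8.97, 9.80 and 9.69 at day 15 and 9.25, 9.0001 and 10.3 at day 19, against 7.94, 7.79 and 7.40 in the reference, with no overlap. It rose by 1.30, 1.78 and 1.82, each ± 0.406 (adjusted p = 0.0279, 0.00497 and 0.00478). Its day 7 call was lost under quantile normalization (0.93, adjusted p = 0.120), without day 7 replicate 1 (0.98, adjusted p = 0.0970), without day 7 replicate 3 and without any 1 reference array. DAL82 rose by 1.16, 1.04 and 1.63, each ± 0.302 (adjusted p = 0.0121, 0.0159 and 0.00180), and DAL81 fell by -0.84, -1.17 and -0.83, each ± 0.267 (adjusted p = 0.0290, 0.00488 and 0.0267). The DAL81 calls at day 7 and day 19 were lost without any 1 reference array, and also without day 7 replicate 2 or 3 and day 19 replicate 3 (adjusted p up to 0.105), and the DAL82 call at day 15 without day 15 replicate 2 (adjusted p = 0.0628). GLN3, the other activator, differed by 0.50, -0.38 and 0.40 and was not called. Likewise not called were GZF3, the repressor most like DAL80, at -0.24, -0.84 and 0.0807, and URE2, which holds Gln3 in the cytoplasm, at 0.15, -0.0580 and 0.0301. Of all 21 nitrogen regulators listed, 7 rose and 2 fell at day 7, 2 rose and 3 fell at day 15, and 6 rose and 2 fell at day 19. Against the shares of all genes given above, the count that rose was higher than the background at day 7, lower at day 15 and near it at day 19. This list too was chosen with earlier results known, so these positions were not a test. STP2, a factor activated by external amino acids, was among them, with 1.25 at day 7 and 1.41 at day 19 (adjusted p = 0.0138 and 0.00665).

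**Figure D5:**
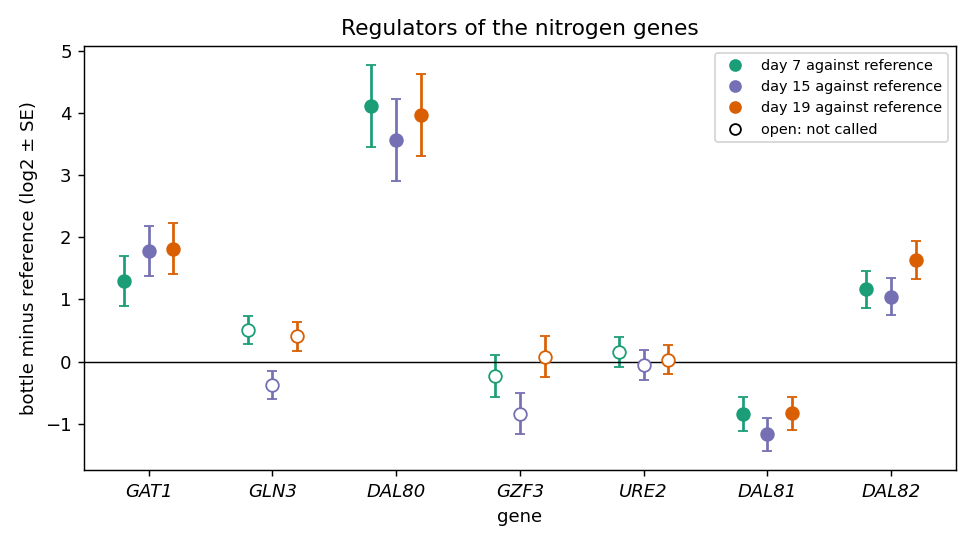
Difference from the reference (log2 ± limma standard error) for regulators of the nitrogen genes at the 3 bottle times; filled points are called. DAL80 stands highest, GAT1 and DAL82 lie above 0, DAL81 below 0, and GLN3, GZF3 and URE2 are open at all times.

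Other genes under nitrogen catabolite repression went both ways. Of 26 measured, 11 rose and 5 fell at day 7, 11 rose and 4 fell at day 15, and 11 rose and 6 fell at day 19, with medians of 0.50, 0.0742 and 0.0616. The share that rose was above that of all genes at each time (19.7%, 21.4% and 22.7%), and the share that fell was near or below it (17.1%, 23.5% and 20.8%). The list was chosen with earlier results of these data known, which can by itself raise such a share, so no conclusion is drawn from it. The proline permease gene PUT4 rose by 5.37, 5.16 and 5.38 and the proline oxidase gene PUT1 by 2.80, 2.99 and 3.11. UGX2 rose by 3.78, 3.75 and 3.82. DIP5, the permease for glutamate and aspartate, fell by -3.30 and -4.84 at day 7 and day 15 and differed by -1.56 at day 19 (adjusted p = 0.234). Its day 7 call was lost without day 7 replicate 2 or 3 or any 1 reference array (adjusted p up to 0.0929).

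Ammonium handling was mixed as well. Of 8 other allantoin, urea and ammonium genes measured, 3 rose and 2 fell at day 7, 2 and 2 at day 15, and 3 and 1 at day 19. Of all genes, 19.7%, 21.4% and 22.7% were called higher at day 7, day 15 and day 19, and 17.1%, 23.5% and 20.8% lower. The counts of this list and of the ammonium assimilation list below are small and were not tested against these shares. ATO2, of a family linked to ammonium export and acetate, rose by 4.69, 4.56 and 4.92. ADY2 of that family rose by 6.14 at day 19 (adjusted p = 0.00250) and differed by 2.89 and 3.11 at day 7 and day 15 (adjusted p = 0.0800 and 0.0551), while ATO3 fell by -1.42 and -1.74 at day 7 and day 15. In ammonium assimilation and glutamate metabolism, 3 of 9 rose and 0 fell at day 7 (also 0 at an unadjusted p under 0.05 in limma), 4 rose and 4 fell at day 15, and 2 rose and 3 fell at day 19. GDH3, a glutamate dehydrogenase gene, rose by 4.03, 4.40 and 5.09, and GDH2, which releases ammonium from glutamate, by 1.20, 1.11 and 1.68. GAD1, the glutamate decarboxylase gene, rose by 2.24 and 2.39 at day 7 and day 15, and ASN1, for asparagine synthetase, fell by -2.05 and -1.55 at day 15 and day 19. The day 7 calls of ATO3, GDH2 and GAD1 were lost without day 7 replicate 1 or 3 or reference replicate 1 or 2, that of ATO3 also without reference replicate 3 or day 15 replicate 2 and that of GAD1 also without reference replicate 3. The day 15 calls of GAD1 and GDH2 were lost without day 15 replicate 2, and that of GDH2 also without day 15 replicate 3 or reference replicate 1 or 2 (adjusted p up to 0.111 over all of these).

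Of 14 permeases of preferred amino acids and related compounds, 3 rose and 2 fell at day 7, 2 and 4 at day 15, and 3 and 1 at day 19. The shares of all genes called higher were 19.7%, 21.4% and 22.7% at the 3 times, and those called lower 17.1%, 23.5% and 20.8%. The day 7 counts of these permeases are near these shares. Neither this list nor the 8 permeases below were tested against them. AGP2 rose by 4.02, 3.84 and 3.88 and ALP1 by 2.42, 5.03 and 3.86, while BAP3, for branched-chain amino acids, fell by -2.74 at day 7 and MUP1, for methionine, by -1.81 at day 15. BAP3 read 6.82 on day 7 replicate 1 and 10.4 and 10.2 on replicates 2 and 3, and fell by -1.57 without replicate 1 (adjusted p = 0.00387). The ALP1 call at day 7 was lost under quantile normalization (1.53, adjusted p = 0.0710), and the MUP1 call without day 15 replicate 1 or 3 or any 1 reference array (adjusted p up to 0.108). Of 8 permeases of nucleobases, nucleosides and vitamins, 0 rose and 3 fell at each time in limma, and at an unadjusted p under 0.05 1, 1 and 0 were higher at day 7, day 15 and day 19. NRT1 fell by -3.11, -2.96 and -3.37 and THI7, the thiamine permease, by -1.88, -2.88 and -2.16. FCY2, for purines and cytosine, fell by -1.62 at day 15, and TPN1, for vitamin B6, by -0.81 and -0.68 at day 7 and day 19. Single arrays ended the calls of THI7 at day 7 (day 7 replicates 2 and 3, each reference array), FCY2 at day 15 (day 15 replicate 2) and TPN1 (day 7 replicate 2 and reference replicates 1 and 2 at day 7; day 19 replicate 3 and each reference array at day 19), with adjusted p up to 0.111.

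Close relatives of the members gave other values than the members. MLS1, the malate synthase of the glyoxylate cycle and the relative of DAL7, rose by 4.65, 3.95 and 4.72, each ± 1.01 (adjusted p = 0.00506, 0.00887 and 0.00392). MEP1, an ammonium permease related to MEP2, rose by 0.97 at day 7 (adjusted p = 0.0154; 0.0517 without day 7 replicate 1 and 0.0504 without reference replicate 3), and MEP3 differed by -1.01, 0.15 and -1.02 and was not called. TNA1, a nicotinic acid permease of the family of DAL5, fell by -1.86, -1.51 and -2.41, and SEO1 of that family rose by 2.13 and 2.47 at day 15 and day 19. FUI1 and FUR4, the uridine and uracil permeases related to DAL4, were not called, with 1.16 and 0.68 at day 7, and neither was AGP1, an amino acid permease related to GAP1, with -0.31, 0.0834 and 0.121. These differences between relatives were not tested as such.

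Genes with the pattern most like that of the members were ranked among 5397 others by Pearson correlation over the 12 arrays, which share the step between bottles and reference. For the mean of the 6 DAL pathway genes the most alike was MF(ALPHA)1, an alpha-factor gene, with 0.979 over 12 arrays and 0.959 over the 9 bottle arrays. KRE9, DTR1, PRP9, YNL234W, OYE3, RSM22 and SIT4 followed with 0.898 to 0.933, and with 0.766 to 0.924 over the bottle arrays. DAL80 was most like HSF1, YJL077W-B and RAD28, with 0.966 to 0.970, and with 0.866 to 0.904 over the bottle arrays. For GAP1 the most alike were RAD2, ATG26 and YCT1, with 0.948, 0.921 and 0.893, and without day 7 replicate 1 these were 0.824, 0.763 and 0.610. MEP2 was most like MOD5, ACA1 and RAD2, with 0.919, 0.885 and 0.878, and without day 7 replicate 1 these were 0.928, 0.829 and 0.688. DUR3 was most like SAT4, STP3 and YCR102C, with 0.888, 0.869 and 0.868, which became 0.391, 0.259 and 0.7003 without that array, so for DUR3 the likeness rested largely on 1 array.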

How the data were processed

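The deposited values are log2 probe set summaries made by the authors; the submitters' processing notes name RMA, and which program ran it is not given in the sources used here. Total RNA (5 µg an array) was labelled with biotin by in vitro transcription, per the labels' protocols. Of 10928 probe sets, 5498 were paired with 1 S. cerevisiae gene through the platform annotation, with 12 symbols updated through RefSeq. The probe set with the highest mean was kept for each of 47 genes with several, which left 5449 genes. Background was the 0.95 quantile of 1746 Schizosaccharomyces pombe probe sets. All 12 arrays entered 1 limma 3.58.1 fit in R 4.3.3 (lmFit, eBayes, no trend, not robust; 8 residual and 3.42 prior degrees of freedom), with 6 pairwise comparisons, a moderated F-test among bottle times and Benjamini-Hochberg adjustment over all genes. The fit was tested on simulated data, where it recovered 28% to 44% of changes of 1 on the log2 scale and 77% to 87% of changes of 2. The simulation gave a gene the same spread in all groups, whereas the reference arrays here are closer to each other than the bottle arrays. The number of arrays limits the precision.

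The members and gene lists were chosen with earlier results of these data known. All members were named; from each other list, up to 4 called genes with the largest mean difference, all close relatives and 6 regulators were named. Deviations of same-numbered arrays from their group means correlated at -0.277 to 0.414 over 18 pairs (median 0.0553). For arrays of different numbers the range was -0.496 to 0.417 over 36 pairs (median -0.00998). As the ranges overlapped widely, numbers were not used as pairs, though this does not exclude a pairing. Plots used matplotlib 3.10.9 (Python 3.11.15).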

Additional observations from a re-analysis of the deposited data

How the results depend on the processing

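DAL2 and DAL80 stayed called at all 3 times under all 24 alternatives run, with DAL2 between 1.70 and 2.19 and DAL80 between 2.81 and 4.68. The counts of members called higher than the reference at day 7, day 15 and day 19, 5, 2 and 2 in the main analysis, moved more. At day 7 the count was 2 with quantile normalization and 2 at adjusted p under 0.01, where 16.2% and 11.6% of all genes were higher. With array weights it was 9 at day 15 and 7 at day 19, where 38.8% and 30.9% of all genes were higher, and with only the groups compared 8 and 6. With each array left out in turn the day 7 count ranged from 3 to 6, the day 15 count from 2 to 5 and the day 19 count from 2 to 6. The shares of all genes called higher in these fits ranged from 13.5% to 23.7%, 15.7% to 25% and 16% to 24.2%. At day 7 the count was 3 without reference replicate 1, reference replicate 2 or day 7 replicate 1, where 14.1%, 13.5% and 17.3% of all genes were higher. At day 15 it was 4 without day 19 replicate 1, where 25% were. With both replicate 1 arrays of day 7 and day 19 out, chosen after seeing the data, 8 and 7 were higher at day 15 and day 19, where 28% and 27.5% of all genes were. In that fit 1 member was higher at day 19 than at day 7, where 5.76% of all genes were. The F-test passed 1 member there, and its share over all genes in that fit is not given here. Quantile normalization turned DAL1 to -0.0304 at day 7 and -0.20 at day 19, DAL4 to -0.47 and -0.34 at day 15 and day 19, and DAL3 and DUR3 to -0.28 and -0.0802 at day 19, none of them called in either analysis; the cause was not tested. With arrays left out, DUR3 at day 19 ranged from -0.118 to 0.38 (-0.0328 without reference replicate 3, -0.0219 without day 19 replicate 2), DAL7 at day 15 from -0.0669 (without day 15 replicate 1) to 0.74, DAL1 at day 19 from -0.142 (without day 19 replicate 2) to 1.56, and GAP1 between day 19 and day 7 ranged from -1.07 to 1.86 (-0.73, -0.243 and -0.114 among them). Over all genes, array weights gave 1786 higher and 1697 lower at day 7 and 2115 and 2322 at day 15, against 1076 and 931 and 1164 and 1283 in the main analysis; between bottle times they gave 594 higher and 880 lower (day 15 against day 7), 514 and 290 (day 19 against day 15) and 251 and 193 (day 19 against day 7), against 0 and 0, 0 and 0, and 7 and 1, with 0 members called. Quantile normalization put the median of all genes at -0.11, -0.13 and -0.13 at the 3 times. Array labels share replicate numbers; the replicate block ended the DAL5 call at day 7 (adjusted p = 0.0574), which left 4 members, and 6 of 12 arrays correlated best with their own number. Of 840 values of single members under alternatives, 753 kept direction and side of the threshold.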

Other observations

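The 20 genes with the largest gap between day 7 replicate 1 and the mean of the other day 7 arrays, listed after the values were seen, held 4 members, GAP1, MEP2, DUR3 and DAL80. AQY1, a spore water channel gene, read 13.0 on replicate 1, against 7.29 and 7.80 on replicates 2 and 3. HXT5, a hexose transporter gene of slow growth, read 12.4, 6.13 and 8.82 on replicates 1, 2 and 3. OPT2, a peptide transporter gene, read 12.3, 7.90 and 7.96. SPG4, SIP18, SPS100 and GRE1, genes known from stationary phase, stress or sporulation, were also among the 20, with gaps of 4.86, 4.27, 3.82 and 3.28, and GDH3 had a gap of 2.98. Among the other lists, 4 of 26 genes under nitrogen catabolite repression had a gap of at least 2 on the log2 scale (DIP5, OPT2, PUT4 and UGA4), as had 2 of 9 ammonium assimilation and glutamate genes (GDH3 and GLN1), 1 of 14 permeases of preferred amino acids (SAM3), 1 of 8 nucleobase and related permeases (THI7), 1 of 9 close relatives (MLS1), 0 of 21 regulators and 0 of 8 other allantoin, urea and ammonium genes. Over all genes 61 of 5449 did.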
